A study of Mus musculus with 56 samples.

Results

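The nuclear genes for subunits of the mitochondrial respiratory chain and ATP synthase were followed through ribosome pulldowns from mouse barrel cortex, the part of the somatosensory cortex that receives input from the whiskers. Members were protein-coding genes whose symbols mark them as subunits of complex I (the Nduf genes of the a, b, c, s and v series), complex II (Sdha to Sdhd), complex III (Uqcr genes), complex IV (Cox genes of the subunit 4 to subunit 8 families) or complex V (Atp5 genes), with a mean of at least 1 CPM (a count scaled to the size of its library) over the libraries of a line. This gave 78 members among 55385 genes in the knockout microglial line, 78 among 45682 genes in the heterozygous microglial line and 79 among 47971 genes in the astrocyte line. Complex I had 37 members, complex II 4, complex III 8 and complex V 17 in each line. Complex IV had 12 members in each microglial line and 13 in the astrocyte line. The 78 microglial members were the same genes in both lines and were all members in the astrocyte line too, where Cox6b2, an isoform best known from testis, was added at low level. The genes that matched by symbol but stayed under the minimum were mostly isoforms of other tissues or of low oxygen. Cox4i2, Cox7a1, Cox7b2, Cox8b, Cox8c and Ndufa4l2 averaged between 0 and 0.663 CPM in each line. Nearest to the minimum were Cox6b2 from below (0.821 CPM in the knockout and 0.804 CPM in the heterozygous line) and Cox6a2 from above (1.44, 1.41 and 1.00 CPM in the knockout, heterozygous and astrocyte lines).

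Oxidative phosphorylation moves electrons from NADH and succinate through complexes I to IV to oxygen, and complex V uses the proton gradient so formed to make ATP. Most subunits are encoded in the nucleus, translated in the cytosol and imported, while a small catalytic core is encoded by mitochondrial DNA and translated inside the organelle. A pulldown of tagged cytosolic ribosomes can therefore report on the nuclear-encoded subunits and not on the mitochondrially encoded ones.

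All mice were 5 days old and had the whiskers of the right side cauterised at postnatal day 4, so that deprived cortex had lacked its whisker input for 24 hours. In each of 3 lines an EGFP-tagged ribosomal protein L10a was pulled down, and RNA was sequenced from the bound fraction and from the unbound remainder of the same piece of cortex. The labels call the unbound remainder whole tissue or tissue. The knockout microglial mice carried Cx3cr1 CreErt2/CreErt2 (Litt) with Eef1a1 LSL EGFP-L10a/+, and so had a Cre insert in both alleles of this fractalkine receptor gene. The heterozygous microglial mice carried Cx3cr1 CreErt2/+ (Litt) with Eef1a1 LSL EGFP-L10a/+, so 1 of their Cx3cr1 alleles was replaced too. In both the tag was switched on by tamoxifen on days 1 to 3, and the labels give a daily oral dose of 50 µg for the heterozygous genotype. Tagged cells in these lines are the cells with a history of Cx3cr1 promoter activity. The astrocyte mice carried Aldh1l1 EGFP-L10a, which drives the tag directly in cells using the Aldh1l1 promoter, and received no tamoxifen. Each fraction of the knockout line had 5 deprived and 5 control libraries, of the heterozygous line 4 and 4, and of the astrocyte line 5 and 5, which makes 56 libraries. Deprived and control pieces were the 2 hemispheres of 1 mouse in the knockout line. In the heterozygous line this held for mice 14 and 15 alone. By title both pieces of mouse 17 were deprived and both of mouse 21 control, although a right piece lies on the side of the cut whiskers and a left piece opposite. Libraries were grouped by title. p-values measure the spread between these libraries, some of which come from the same mouse.

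Library totals ran from 35792651 to 53872463 counts (bound) and 34622580 to 56689296 counts (unbound) in the knockout line. Heterozygous libraries held 39937173 to 49690286 counts (bound) and 32772396 to 50712376 counts (unbound), and astrocyte libraries 10928457 to 28584281 counts (bound) and 10081228 to 24306936 counts (unbound). Cx3cr1, the gene altered by the Cre alleles, lay between 0.338 and 1.26 CPM in the bound knockout libraries, against 6.56 to 12.6 CPM in the bound heterozygous libraries. Each of 14 microglial markers was higher in bound than in unbound RNA of the knockout and heterozygous lines (median log2 ratios 2.79 and 2.81), and 11 of 12 astrocyte markers were higher in the astrocyte line (1.06). RNA of other cell types was present in the bound fraction. The 12 neuronal markers summed to 8542 to 11369 CPM in bound knockout libraries, 8735 to 12793 CPM in bound heterozygous libraries and 7601 to 10227 CPM in bound astrocyte libraries. In unbound RNA these markers summed to 7584 to 9029 CPM, 7636 to 9391 CPM and 8169 to 8952 CPM in the same order. Ratios below therefore describe the pulldown of a line and not 1 cell type alone. The 14 microglial markers summed to 113 to 417 CPM in the bound knockout libraries and 211 to 459 CPM in the bound heterozygous libraries. No microglial, astrocyte or neuronal marker was at 0 in every library of any group. In such mixed tissue a level cannot tell fewer cells of a type from less RNA per cell.

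Promoter sequence was compared first, since these genes have a known class of shared regulators. Nuclear respiratory factor 1 (NRF1), the ETS-family factor NRF-2 (GABP) and YY1 are textbook activators of nuclear respiratory genes. RefSeq start sites on GRCm38.p6 gave a promoter, from 250 bases before to 50 bases after the start, for 65 of the 79 members. A gene was counted once over all its listed starts. On either strand the NRF1 motif (GCGC, any base, then TGCGC) was found in 17 of the 65 (26.2%), against 5.19% of all 27025 genes with such promoters. This background was not matched for base content or expression. The ETS motif CCGGAAG was found in 17 (26.2%), against 9.93% of all these genes, and the YY1 motif AAGATGGCG in 7 (10.8%), against 1.64%. At least 1 of the 3 motifs was present in 35 of the 65 (53.8%), against 15.1% of all these genes. The NRF1 motif was found in 7 of 32 genes of complex I, 2 of 3 of complex II, 1 of 5 of complex III, 1 of 10 of complex IV and 6 of 15 of complex V. None of the 3 motifs contains another. A match describes letters and is not evidence of a bound site.

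The 4 promoters printed here belong to the members with the highest and the lowest ratios of bound over unbound RNA in the heterozygous line among those with a promoter in the table: Sdha (chr13:74350191-74350490, minus strand) and Ndufv1 (chr19:4012706-4013005, minus strand) at the top, Ndufc2 (chr7:97399753-97400052, plus strand) and Atp5g2 (chr15:102670998-102671297, minus strand) at the bottom. Each reads 5′ to 3′ in the direction of the gene, and capitals mark a match to the NRF1 motif. The ETS and YY1 motifs are in none of these 4.
Sdha: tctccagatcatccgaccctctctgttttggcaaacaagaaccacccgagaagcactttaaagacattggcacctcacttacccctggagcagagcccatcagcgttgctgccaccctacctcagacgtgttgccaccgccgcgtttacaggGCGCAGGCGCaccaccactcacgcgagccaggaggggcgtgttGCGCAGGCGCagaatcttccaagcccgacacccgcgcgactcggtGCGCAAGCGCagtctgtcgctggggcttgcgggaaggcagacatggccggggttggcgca
Ndufv1: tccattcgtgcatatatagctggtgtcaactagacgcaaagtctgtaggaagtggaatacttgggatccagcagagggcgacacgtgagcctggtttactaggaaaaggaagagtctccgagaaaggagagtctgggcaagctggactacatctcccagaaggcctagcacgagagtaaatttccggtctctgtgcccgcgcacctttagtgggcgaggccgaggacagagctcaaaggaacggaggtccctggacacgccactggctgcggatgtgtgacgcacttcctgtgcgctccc
Ndufc2: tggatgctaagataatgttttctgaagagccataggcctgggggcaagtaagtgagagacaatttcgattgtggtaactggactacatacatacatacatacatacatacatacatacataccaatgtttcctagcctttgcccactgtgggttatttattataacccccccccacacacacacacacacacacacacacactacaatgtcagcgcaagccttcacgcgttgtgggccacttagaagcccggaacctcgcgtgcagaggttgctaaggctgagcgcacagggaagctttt
Atp5g2: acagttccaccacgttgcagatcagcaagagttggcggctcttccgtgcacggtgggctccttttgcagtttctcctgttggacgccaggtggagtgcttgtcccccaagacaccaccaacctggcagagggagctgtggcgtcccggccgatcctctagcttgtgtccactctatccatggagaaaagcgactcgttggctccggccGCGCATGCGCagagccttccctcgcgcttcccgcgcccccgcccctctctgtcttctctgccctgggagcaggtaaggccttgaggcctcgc
Sdha at the top held 3 matches and Atp5g2 at the bottom held 1, while Ndufv1 at the top and Ndufc2 at the bottom held none, so these letters did not sort the 4 promoters by ratio.

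Levels were compared between genes as CPM per kilobase of the main mRNA. Atp5b, the catalytic beta subunit of ATP synthase, was the highest member in each line and fraction, with 442 CPM per kilobase in bound and 619 in unbound RNA of the knockout line, 465 and 631 in the heterozygous line, and 416 and 515 in the astrocyte line. Ndufa4 was the highest gene with a complex I symbol, although its protein is now counted with complex IV. Uqcrh, the hinge protein beside cytochrome c1, led complex III and Cox6a1, a regulatory subunit, led complex IV. The median member had 31.7 CPM per kilobase in bound and 44.1 in unbound RNA of the knockout line, 33.9 and 42.5 in the heterozygous line, and 37.1 and 33.2 in the astrocyte line. Cox6a2, the isoform typical of heart and skeletal muscle, was lowest in both fractions of the microglial lines and in bound astrocyte RNA, at 1.56, 1.66 and 1.18 CPM per kilobase in the bound knockout, heterozygous and astrocyte libraries. As a share of all counts, the members took 0.398 to 0.570% of bound and 0.529 to 0.602% of unbound libraries of the knockout line. Heterozygous libraries gave 0.387 to 0.597% (bound) and 0.531 to 0.620% (unbound), and astrocyte libraries 0.374 to 0.544% (bound) and 0.454 to 0.518% (unbound). These totals include mitochondrial ribosomal RNA, at 1.41 to 3.53% of bound and 22.0 to 31.1% of unbound knockout counts. Of counts outside mitochondrially encoded genes, members took 0.409 to 0.583% of bound and 0.746 to 0.877% of unbound knockout libraries. The heterozygous line gave 0.396 to 0.610% and 0.717 to 0.840%, and the astrocyte line 0.385 to 0.570% and 0.492 to 0.556%.

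**Figure D1:**
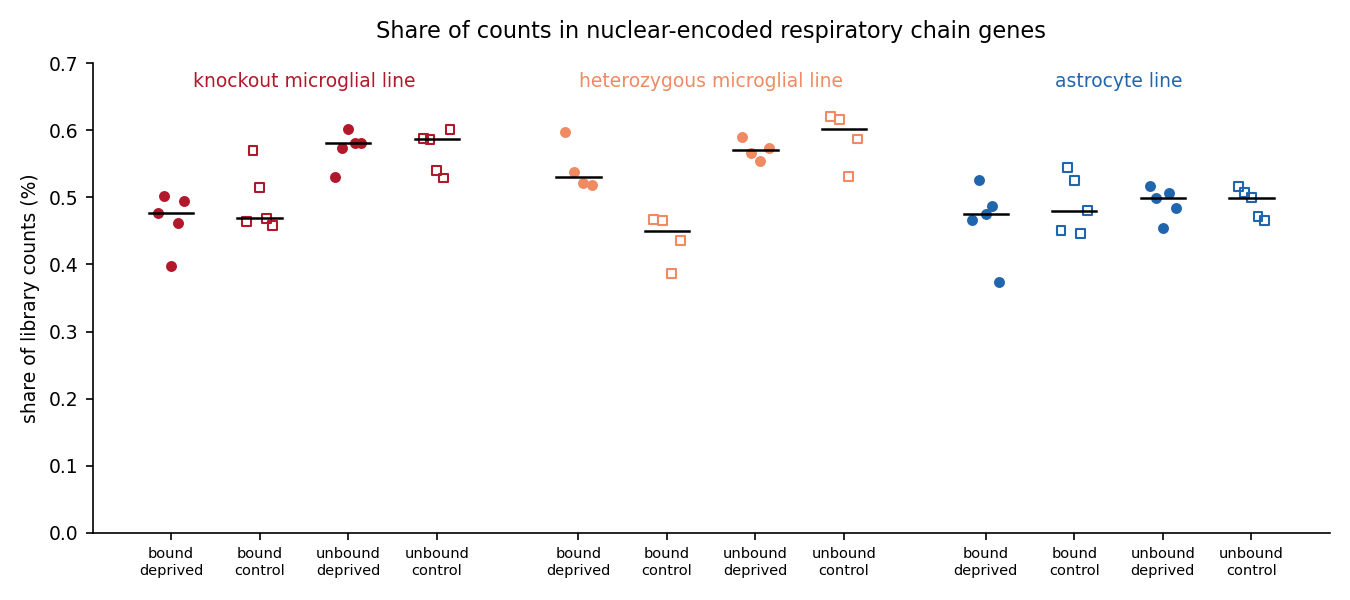
Share of each library's counts (vertical axis, percent) taken by the nuclear-encoded respiratory chain genes, by line and fraction. Points are libraries, filled for deprived and open for control, and bars are medians. In the microglial lines the bound libraries lie mostly under the unbound ones, and among bound heterozygous libraries all 4 deprived ones lie above all 4 control ones. Counts include mitochondrial ribosomal RNA, which took a larger share of unbound than of bound libraries.

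In both microglial lines nearly every nuclear-encoded subunit was lower in the bound than in the unbound fraction. In the astrocyte line the subunits were split, with more above than below. By edgeR's quasi-likelihood test with Benjamini-Hochberg adjustment over all genes, 71 of 78 members were lower and 4 higher in bound than in unbound RNA of the knockout line (all genes 30.4% lower and 31.6% higher), with a median log2 ratio of -0.66 for members and -0.01 for all 19681 genes. In the heterozygous line 70 were lower and 4 higher (all genes 30.8% and 31.8%), with a median of -0.61 for members and -0.01 for all genes. In the astrocyte line 34 of 79 were higher and 17 lower (all genes 31.5% and 27.6%), with a median of 0.13 for members and 0.03 for all genes. Other protein-coding genes had medians of 0.07, 0.07 and 0.05 in the knockout, heterozygous and astrocyte lines. In the knockout line every bound library lay under every unbound one for 55 members (9.98% of all genes did so), and in the heterozygous line for 48 (11.6%). In the astrocyte line this held for 5 members (11.9%). Bound and unbound RNA of the same piece showed the same: 70 of 78 members were lower in bound RNA in all 10 pieces of knockout cortex and 65 in all 8 pieces of heterozygous cortex, against 10 of 79 in all 10 pieces of the astrocyte line. Counts by piece were made for members alone, with no share of all genes beside them.

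The low ratios of the microglial lines ran through each complex. Median log2 ratios of the knockout line were -0.65 for complex I, -0.40 for II, -0.68 for III, -0.74 for IV and -0.68 for V. Those of the heterozygous line were -0.60, -0.48, -0.60, -0.64 and -0.69 in the same order. Those of the astrocyte line were 0.14, 0.10, 0.20, 0.14 and 0.13. All 12 members of complex IV and all 17 of complex V passed the threshold as lower in bound RNA of both microglial lines.

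**Figure D2:**
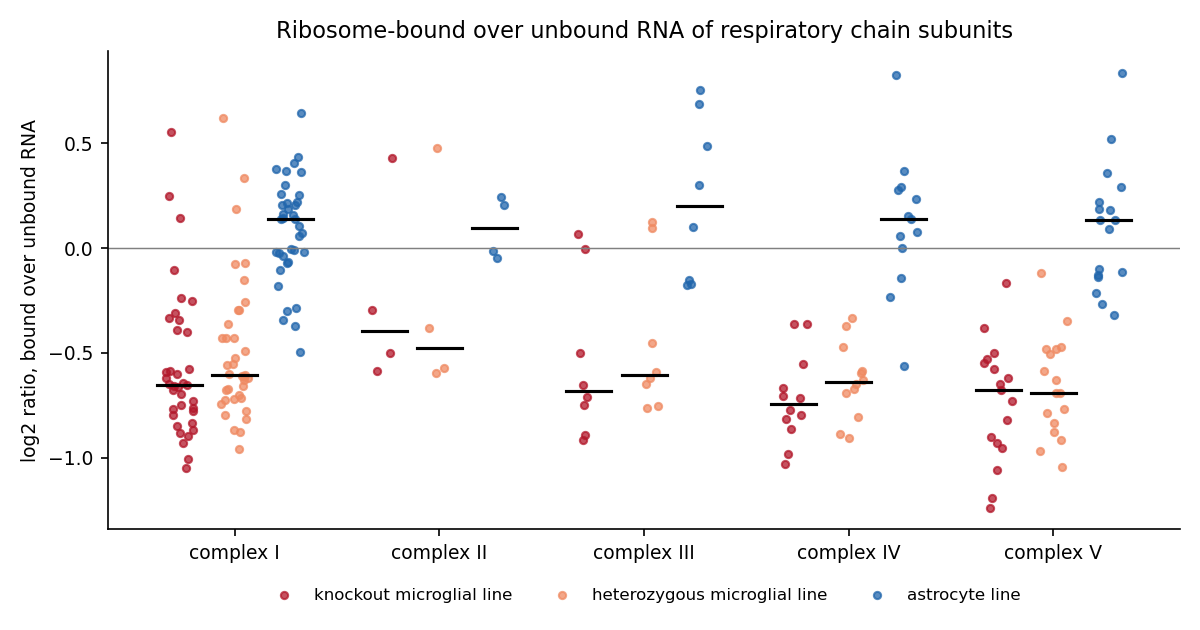
Log2 ratio of bound over unbound RNA (vertical axis) of each member, by complex and line. Points are genes and black bars are medians. The knockout and heterozygous medians lie between -0.74 and -0.40 in each complex, and the astrocyte medians between 0.10 and 0.20.

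Complex I takes electrons from NADH in its matrix arm. Ndufs1, the largest subunit of that arm and holder of several iron-sulfur clusters (chr1:63143596-63176833), went against most members. Its lowest, median and highest values were 68.6, 93.9 and 106 CPM in bound RNA and 57.8, 62.5 and 66.5 CPM in unbound RNA of the knockout line. In the heterozygous line they were 83.3, 94.5 and 112 CPM in bound and 54.1, 62.0 and 67.1 CPM in unbound RNA. In the astrocyte line they were 59.4, 66.9 and 75.1 CPM in bound and 55.0, 60.9 and 63.4 CPM in unbound RNA. The fractions did not overlap in the microglial lines and did in the astrocyte line. The log2 ratio was 0.55 ± 0.06 (SE, edgeR adjusted p = 6.7e-08) in the knockout line, 0.62 ± 0.05 (adjusted p = 7.2e-10) in the heterozygous line and 0.22 ± 0.04 (adjusted p = 6.7e-05) in the astrocyte line. Of the exon bases of Ndufs1, 6.05% overlap Ino80dos on the other strand, and the sources used here do not say whether counting used the strand.

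Ndufv1, which holds the NADH and flavin site, was also higher in bound RNA, with log2 ratios of 0.25 ± 0.06 in the knockout, 0.33 ± 0.07 in the heterozygous and 0.37 ± 0.07 in the astrocyte line. Ndufa9, an accessory subunit at the joint of the arms, had 0.14 ± 0.06, 0.19 ± 0.06 and 0.16 ± 0.06 in the same order of lines. Core subunits were not alike, and Ndufs8, which carries iron-sulfur clusters on the path to the quinone site, was lower in bound RNA at -0.93 and -0.87 in the knockout and heterozygous lines. Over the 7 core subunits the medians were -0.24, -0.07 and 0.07 in the knockout, heterozygous and astrocyte lines, and over the 30 accessory subunits -0.67, -0.61 and 0.14. Of the accessory subunits 29 of 30 were lower in bound RNA in each microglial line, with Ndufa9 the exception. Ndufc2, an accessory subunit of the membrane arm (chr7:97400003-97407802), was among the lowest. Its values were 25.4, 28.9 and 34.8 CPM in bound and 51.6, 60.2 and 65.7 CPM in unbound knockout RNA (lowest, median, highest), 22.3, 30.0 and 34.4 CPM against 48.4, 56.0 and 63.7 CPM in the heterozygous line, and 34.1, 46.4 and 51.4 CPM against 34.8, 40.3 and 46.4 CPM in the astrocyte line. Bound and unbound values overlapped in the astrocyte line alone.

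Complex II, which is also an enzyme of the citric acid cycle, has all its subunits encoded in the nucleus. Sdha, its flavoprotein (chr13:74322254-74350280), had 127, 164 and 181 CPM (lowest, median, highest) in bound and 103, 119 and 125 CPM in unbound knockout RNA, 149, 182 and 194 CPM against 112, 118 and 139 CPM in the heterozygous line, and 118, 133 and 150 CPM against 113, 118 and 128 CPM in the astrocyte line. The fractions were apart in both microglial lines and overlapped in the astrocyte line. The log2 ratio of Sdha was 0.43 ± 0.06 in the knockout, 0.48 ± 0.05 in the heterozygous and 0.21 ± 0.05 in the astrocyte line. The partner subunits went the other way in the microglial lines. Sdhb, the iron-sulfur subunit, had -0.58 and -0.60 in the knockout and heterozygous lines, and the membrane anchors Sdhc and Sdhd had -0.50 and -0.57, and -0.29 and -0.38. In the astrocyte line Sdhc was higher in bound RNA (0.24), and Sdhb (-0.05) and Sdhd (-0.01) did not pass the threshold.

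Complex III passes electrons from quinol to cytochrome c. Its core proteins Uqcrc1 and Uqcrc2, which have no redox centre, did not pass the threshold in the microglial lines, with log2 ratios of -0.01 and 0.07 in the knockout and 0.12 and 0.09 in the heterozygous line. In the astrocyte line Uqcrc1 was higher (0.30) and Uqcrc2 lower (-0.17). The small subunits Uqcrq, Uqcr10 and Uqcr11 were lower in both microglial lines and higher in the astrocyte line. Uqcrb, a small subunit at the quinone site, was lower in the knockout, heterozygous and astrocyte lines (-0.71, -0.75 and -0.18). Uqcrh, the hinge protein, was lower in the microglial lines (-0.65 and -0.62) and did not pass the threshold in the astrocyte line (0.10). Uqcrq, which contacts the quinone-binding cytochrome b (chr11:53427922-53430831), ranged from 15.7 to 22.8 CPM in bound and 30.7 to 41.3 CPM in unbound knockout RNA, from 17.7 to 23.8 CPM against 28.3 to 40.6 CPM in the heterozygous line, and from 18.1 to 35.6 CPM against 14.0 to 21.2 CPM in the astrocyte line. The fractions were apart in the microglial lines, in the opposite sense to the astrocyte medians of 27.2 CPM in bound and 16.2 CPM in unbound RNA. Uqcr11, another small membrane subunit, had log2 ratios of -0.89, -0.65 and 0.69 in the knockout, heterozygous and astrocyte lines. Uqcrfs1, the Rieske iron-sulfur protein, was lower in all 3 lines (-0.50, -0.45 and -0.15).

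Complex IV reduces oxygen on a core of mitochondrially encoded subunits that the nuclear ones surround. Cox4i1, the ubiquitous regulatory isoform, had 75.4 to 102 CPM in bound and 119.7 to 151 CPM in unbound knockout RNA, 82.7 to 99.4 CPM against 113 to 136 CPM in the heterozygous line, and 87.9 to 119.7 CPM against 71.2 to 87.9 CPM in the astrocyte line. The 2 fractions overlapped in none of the 3 lines, with bound RNA lower in the microglial lines and higher in the astrocyte line, where the edges nearly met. Cox6b1, on the intermembrane side, had log2 ratios of -1.03 in the knockout and -0.88 in the heterozygous line, against 0.14 in the astrocyte line (adjusted p = 0.0875). Cox5a and Cox5b, on the matrix side, had -0.80 and -0.81 in the knockout line, -0.80 and -0.65 in the heterozygous line and 0.06 and 0.24 in the astrocyte line. Cox8a, a small membrane subunit, had -0.71, -0.59 and 0.28, and Cox6a1 -0.77, -0.63 and 0.00 in that order of lines. Cox7a2l, which links complexes into supercomplexes, had the highest ratios of the complex IV genes named here in the microglial lines, at -0.36 and -0.33. It had -0.14 in the astrocyte line. Among tissue isoforms in the astrocyte line, Cox6a2 had -0.56, beside 0.00 for Cox6a1. Its mean there was 1.00 CPM, at the minimum for members, and its ratio ran from -0.94 to 0.54 by piece. Cox6b2 had 0.83 ± 0.25 (edgeR adjusted p = 0.0054, at a median of 1.53 CPM in bound and 0.991 CPM in unbound RNA), beside 0.14 for Cox6b1. Differences between isoforms were not tested.

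Complex V held members with mildly low and with strongly low ratios in the microglial lines. The large subunits of the catalytic head were close to balanced or mildly low: Atp5a1, the alpha subunit, had -0.17, -0.12 and -0.14 in the knockout, heterozygous and astrocyte lines, Atp5b -0.50, -0.48 and -0.27, and Atp5c1, the gamma subunit of the central stalk, -0.38, -0.35 and -0.22. All of these passed the threshold. By piece of heterozygous cortex, however, the ratio of Atp5a1 was above 0 in 4 of 8 pieces and below 0 in 4. Atp5d, the delta subunit of the same stalk (chr10:80138632-80145818), had 32.1, 36.8 and 45.2 CPM (lowest, median, highest) in bound and 70.6, 86.2 and 96.9 CPM in unbound knockout RNA. In the heterozygous line it had 33.8, 41.3 and 43.6 CPM against 69.2, 80.7 and 89.5 CPM, and in the astrocyte line 67.0, 78.7 and 92.6 CPM against 46.8, 57.8 and 67.7 CPM. Thus bound RNA lay wholly under unbound RNA in both microglial lines and nearly wholly above it in the astrocyte line. The log2 ratios were -1.19 ± 0.07 (SE, edgeR adjusted p = 2.6e-13), -1.04 ± 0.06 (8.6e-12) and 0.52 ± 0.06 (1.5e-08).

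The 3 genes Atp5g1, Atp5g2 and Atp5g3 encode the same mature c subunit of the rotor ring behind different import signals. Atp5g2 (chr15:102662864-102672352) had 3.88, 5.26 and 8.06 CPM in bound and 8.45, 12.7 and 17.2 CPM in unbound knockout RNA (lowest, median, highest). It had 4.47, 6.31 and 7.67 CPM against 7.35, 12.2 and 15.2 CPM in the heterozygous line, and 24.9, 25.9 and 34.5 CPM against 12.8, 15.96 and 19.2 CPM in the astrocyte line. The fractions were apart in the knockout line and overlapped slightly in the heterozygous line, with bound RNA lower in both (log2 ratios -1.24 ± 0.12 and -0.97 ± 0.14), and were apart in the astrocyte line, where it was higher (0.84 ± 0.08). Atp5g1 had -0.73, -0.69 and -0.10, and Atp5g3, the most abundant of the 3 per kilobase, -0.62, -0.69 and 0.19. Atp5g2 has 2 near copies among annotated transcripts of other genes (at least 95% identity over at least 50% of the mRNA), and those drew counts equal to 6.56% of its own in the knockout, 5.35% in the heterozygous and 7.57% in the astrocyte line. Over all members 11 of 79 had such a copy, and Atp5l had 9, which drew counts equal to 13.6%, 13.7% and 30.1% of its own in the same order of lines. Atp5o had 1 copy (25.4%, 25.2% and 10.0%) and Atp5h 3 (16.4%, 16.7% and 17.2%). Treatment of reads with several hits is not given, so these shares do not bound the uncertainty of such genes.

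The difference between lines was tested as an interaction of line and fraction. The ratio was lower in the heterozygous than in the astrocyte line for 67 of the 78 members and higher for 3 (of 21503 genes, 24.7% were lower and 17.1% higher), with a median difference of -0.75 for members, -0.14 for all genes and -0.03 for other protein-coding genes. With DESeq2 size factors the all-gene median was -0.08 and that of members -0.69. Complex IV had the lowest median difference (-0.88), followed by complex V (-0.79), I (-0.74), III (-0.72) and II (-0.54). The differences were -1.88 ± 0.16 for Atp5g2 (adjusted p = 1.5e-12), -1.63 ± 0.09 for Atp5d (1.5e-18), -1.59 ± 0.12 for Uqcrq (5.4e-14), -1.41 ± 0.14 for Uqcr11 and -1.25 ± 0.10 for Ndufc2. The members with a higher ratio in the heterozygous line were Ndufs1 (0.33 ± 0.07, adjusted p = 8.1e-05), Sdha (0.20 ± 0.07, 0.0148) and Uqcrc2 (0.19 ± 0.07, 0.034). For 8 members the lines did not differ past the threshold, among them Ndufv1 (-0.11), Atp5a1 (-0.06) and Cox6a2 (-0.18). The lines also differ in transgene, tamoxifen and count table, and these cannot be told apart. They differ in RNA content as well. Mitochondrial ribosomal RNA took 1.47 to 2.08% of bound and 20.5 to 28.6% of unbound counts in the heterozygous line, against 1.40 to 2.36% and 3.50 to 6.11% in the astrocyte line. The part of this RNA in the result was not tested beyond a fit without mitochondrially encoded genes.

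**Figure D3:**
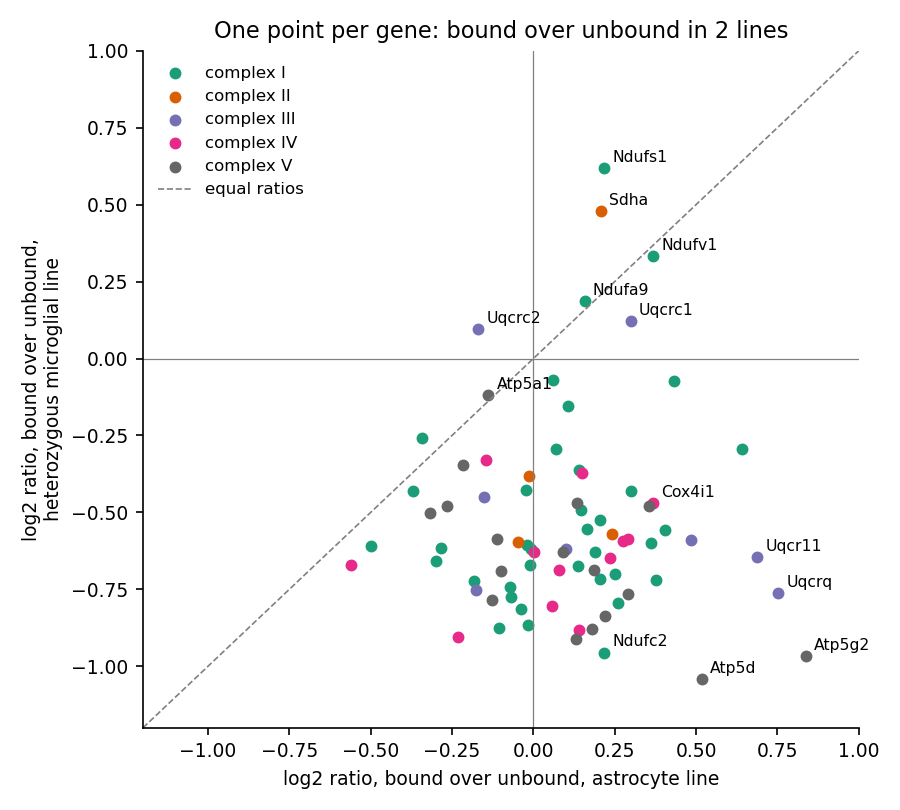
Log2 ratio of bound over unbound RNA in the heterozygous microglial line against that in the astrocyte line, 1 point for each of the 78 shared members, with the dashed line marking equal ratios. Most points lie on the side of lower ratios in the microglial line, Atp5g2 and Atp5d farthest from the dashed line, and Ndufs1 and Sdha lie on its other side.

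Between the microglial genotypes no difference of ratios passed the threshold. In the knockout minus heterozygous comparison edgeR called 0 of 78 members and 0% of 20676 genes, with a median of -0.05 and 64 members below 0. At an unadjusted p under 0.05 there were 3, Ndufa13 (-0.30), Ndufv3 (-0.23) and Ndufa7 (-0.20), and both DESeq2 and limma-voom called 0. The genotypes lie in different tables and carry different RNA labels (polyA for the knockout, total for the heterozygous line), so genotype and library preparation cannot be told apart.

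The members have short mRNAs, with a median length of 861 nucleotides (371 to 4715) against 3074 for the other protein-coding genes tested in the heterozygous line, and ratios varied with length in all protein-coding genes. In the heterozygous line members of up to 700 nucleotides had a median log2 ratio of -0.67 (29 genes), those longer than that and up to 1500 nucleotides -0.60 (31 genes) and longer ones -0.43 (18 genes). Other protein-coding genes of these lengths had -0.51, -0.31 and 0.13. The knockout line had -0.76, -0.64 and -0.45 for members and -0.56, -0.33 and 0.13 for other genes. The astrocyte line had 0.18, 0.07 and -0.11 for members (30, 31 and 18 genes) and 0.14, 0.06 and 0.04 for other genes. Thus in the microglial lines the member medians were below those of other genes in each length bin, by most in the longest. That bin has no upper limit, and lengths were not matched within it. Lengths are those of the main annotated transcript, which placed Ndufb2 (4371 nucleotides) and Atp5g1 (4715 nucleotides) there. The difference of heterozygous minus astrocyte ratios had medians of -0.91, -0.71 and -0.23 for members and -0.68, -0.43 and 0.02 for other genes. The part of length in the result was not tested beyond these bins.

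**Figure D4:**
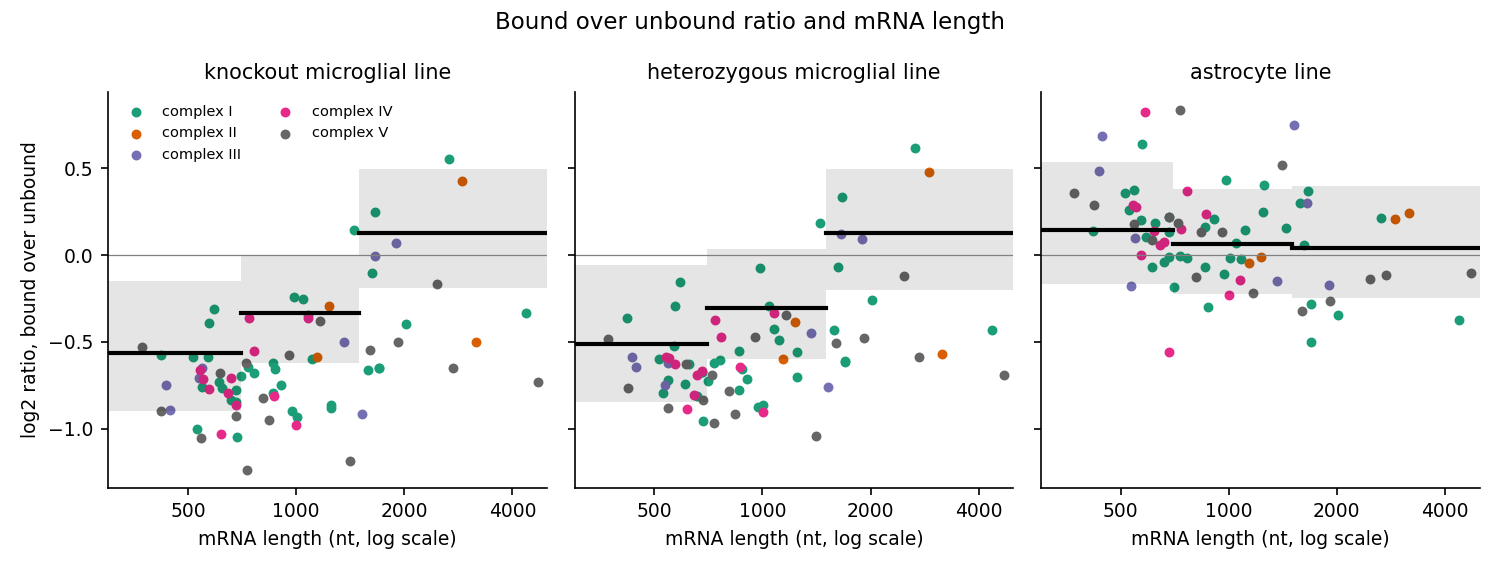
Log2 ratio of bound over unbound RNA of each member against the length of its mRNA in nucleotides, 1 panel per line. The black line is the median and the grey band the quartiles of other protein-coding genes in 3 length bins. Short mRNAs have low ratios in both microglial panels, and members lie mostly under the band's line there.

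Related gene groups place the subunits. The mitochondrially encoded subunits, which cytosolic ribosomes do not translate, had a median log2 ratio of -1.90 in the knockout line (9 of 11 lower, 0 higher) and -2.05 in the heterozygous line (10 of 11 lower, 0 higher), and 0.18 in the astrocyte line (6 of 13 higher, 2 lower). In the heterozygous line mt-Co2, mt-Co3, mt-Atp6 and mt-Nd4l lay near the floor (mean log2 CPM 0.85, 0.17, -0.45 and -1.69). They had 0.86, 0.24, -0.31 and -1.27 in the knockout line, against 7.32, 6.69, 7.89 and 6.72 in the astrocyte line. As mt-Atp8 and mt-Nd3 were tested in the astrocyte line alone, the medians cover unlike sets of genes. The labels describe a spin that removes mitochondria before the pulldown. Among nuclear genes, cytosolic ribosomal proteins had medians of -0.85, -0.73 and -0.14 in the knockout, heterozygous and astrocyte lines (77 of 77, 76 of 77 and 39 of 76 lower), and mitochondrial ribosomal proteins had medians of -0.40, -0.40 and -0.07, beside -0.66, -0.61 and 0.13 for the members. Citric acid cycle enzymes had medians near 0 (0.00, 0.06 and 0.00), with Dlst, a subunit of 2-oxoglutarate dehydrogenase, higher in bound heterozygous RNA (0.96) and Idh3b, of isocitrate dehydrogenase, lower (-0.73). Factors that assemble the complexes had medians of -0.25, -0.22 and -0.09, with 30 of 43, 25 of 43 and 17 of 43 lower. Ttc19 (complex III assembly) and Lrpprc (stability of mitochondrial mRNAs) were higher in bound heterozygous RNA, at 2.15 and 1.53. Cytochrome c (Cycs), which carries electrons from complex III to IV, was lower at -1.08 in the knockout and -1.03 in the heterozygous line. Glycolytic genes had medians of -0.43, -0.32 and -0.02.

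Deprived and control cortex, grouped by title, differed for members in bound RNA of the heterozygous microglial line. There 9 of 78 members rose and 0 fell by edgeR's quasi-likelihood test (of 18001 genes, 5.52% rose and 4.76% fell), with a median log2 fold change of 0.18 for members and 0.01 for all genes, and 71 members above 0. By complex 1 of 37 rose in complex I, 1 of 4 in II, 3 of 8 in III, 0 of 12 in IV and 4 of 17 in V, with medians of 0.19, 0.11, 0.12, 0.10 and 0.22. Every deprived library lay above every control library for 15 members, 19.2% of them (8.91% of all genes), and below for 1 (7.84%). Summed over members, deprived libraries had 4865 to 5277 CPM, against 3915 to 4613 CPM in control libraries. Complex V accounted for 2365 to 2640 CPM in deprived libraries, against 1920 to 2199 CPM in control libraries.

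Values are given for libraries 1, 2, 3 and 4, which in deprived cortex are pieces 14L, 15L, 17L and 17R and in control cortex 14R, 15R, 21L and 21R. Complex III gave 3 of the 9. Uqcrfs1, the Rieske protein (chr13:30540308-30545362), had 52.4, 53.3, 46.7 and 47.3 CPM in deprived cortex, against 42.4, 36.6, 36.0 and 36.6 CPM in control cortex (log2 fold change 0.39 ± 0.08 SE, adjusted p = 0.0094). Uqcrb had 16.5, 15.1, 15.7 and 15.5 CPM in deprived and 12.0, 12.5, 12.1 and 11.4 CPM in control cortex (0.39 ± 0.08, adjusted p = 0.0123). The groups were apart for both, and each stayed past the threshold in all 8 fits that left out 1 library. Uqcrb has 3 near copies among transcripts of other genes, which drew counts equal to 8.88% of its own in the heterozygous line. Uqcrc2 had 108, 117, 99.7 and 107 CPM in deprived and 88.0, 98.0, 91.1 and 89.2 CPM in control cortex (0.23 ± 0.07, adjusted p = 0.0461), groups that lay close at 99.7 and 98.0 CPM. Of its exon bases 19.7% overlap Pdzd9 on the other strand.

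In complex V the alpha subunit Atp5a1 had 586, 578, 535 and 549 CPM in deprived and 454, 489, 434 and 455 CPM in control cortex (0.29 ± 0.07, edgeR adjusted p = 0.0185). Atp5c1, the gamma subunit, had 213, 193, 189 and 186 CPM in deprived and 167, 163, 147 and 152 CPM in control cortex (0.31 ± 0.07, adjusted p = 0.0163). The gamma subunit turns inside a head built of alpha and beta subunits, and for both genes the groups were apart. The peripheral stalk, which holds the head still, gave the other pair. Atp5pb, its subunit b, had 134, 117, 119 and 113 CPM in deprived and 106, 95.5, 82.2 and 93.5 CPM in control cortex (0.35 ± 0.08, adjusted p = 0.018). Atp5j, coupling factor F6, had 68.2, 64.4, 68.5 and 66.5 CPM in deprived and 56.8, 61.8, 50.4 and 52.5 CPM in control cortex (0.27 ± 0.07, adjusted p = 0.0339). Neither overlapped between groups, and 12.7% of the exon bases of Atp5j overlap Gabpa on the other strand.

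The entry points of electrons gave 1 gene each. Ndufs1 had 112, 112, 96.5 and 105 CPM in deprived and 87.2, 92.6, 87.7 and 83.3 CPM in control cortex (0.27 ± 0.07, edgeR adjusted p = 0.0239). Sdha had 189, 194, 185 and 188 CPM in deprived and 154, 178, 149 and 153 CPM in control cortex (0.25 ± 0.07, adjusted p = 0.0366). For both every deprived value lay above every control value. Among the 7 members below 0 the farthest was Cox6a2 (-0.69, adjusted p = 0.111).

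**Figure D5:**
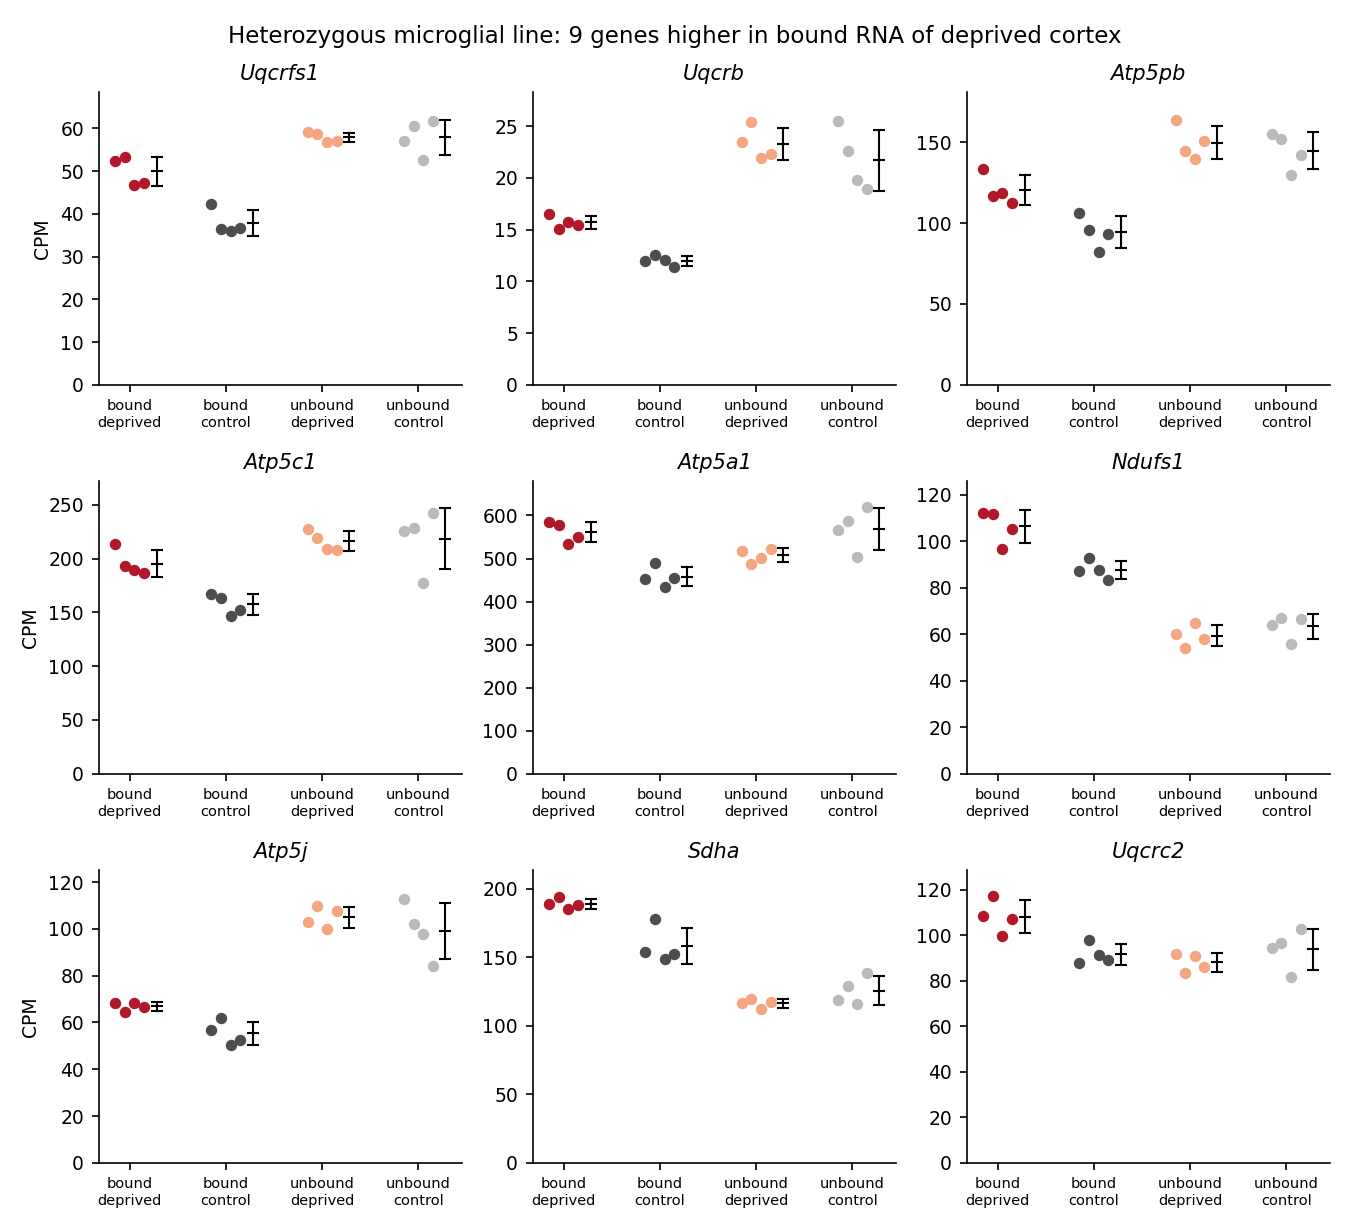
CPM in the heterozygous line for the 9 members past the threshold in bound RNA, 1 panel per gene. From left to right each panel holds bound deprived, bound control, unbound deprived and unbound control libraries. Points are libraries and bars the mean ± SD (n = 4 each). In each panel the 4 bound deprived libraries lie above the 4 bound control libraries.

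The heterozygous result rested on the grouping by title and on single libraries. With the pieces of mice 17 and 21 grouped by side in place of title, 0 members were called and the median was 0.03, with 3 members at an unadjusted p under 0.05. Without pieces 17R and 21L 1 member (Uqcrfs1) was called, at a median of 0.14, and in mice 14 and 15 alone, whose 2 pieces pair by animal, 0 were called without and 2 with the mouse as a block, at medians of 0.09 and 0.08. Leaving out deprived library 1 or 2 left 4 calls and control library 4 left 2. Over the 8 fits that left out 1 library, Atp5c1 was called in 7, Atp5a1 and Atp5pb in 6, Ndufs1 in 4, Atp5j and Uqcrc2 in 2 and Sdha in 1.

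Markers of cell types moved with the deprived group. The 14 microglial markers summed to 378 to 459 CPM in deprived and 211 to 312 CPM in control bound libraries, with 8 of 14 higher (median 0.52), among them Aif1 (0.98) and Csf1r (0.54). The 12 astrocyte markers summed to 732 to 794 CPM in deprived and 642 to 725 CPM in control libraries, with 5 of 12 higher (0.30). The 12 neuronal markers summed to 8735 to 10096 CPM in deprived and 9191 to 12793 CPM in control libraries, with 1 higher and 2 lower (-0.16). No marker of these lists was at 0 in any of these libraries, and the part of cell makeup in the result was not tested.

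Other genes of energy metabolism were measured in the same comparison. Citric acid cycle enzymes had 6 of 18 higher and 0 lower (median 0.21), among them Suclg2, a subunit of succinyl-CoA ligase (0.82 ± 0.14), and Pdhb of pyruvate dehydrogenase (0.35 ± 0.07). Glycolytic genes had 6 of 17 higher and 0 lower (0.22), led by hexokinase Hk2 (0.94 ± 0.12) and Aldoc (0.50), which is also an astrocyte marker. Of mitochondrial ribosomal proteins 4 of 77 were higher, of cytosolic ones 5 of 76, of assembly factors 1 of 43 (Tmem70, 0.28, needed to build complex V) and of import genes 0 of 22. The mitochondrially encoded subunits had 0 of 9 called, with all 9 below 0 (median -0.14). Of these, mt-Co2 and mt-Co3 lay near the floor (mean log2 CPM -0.66 and -1.85). Among regulators of these genes Ppargc1a (-0.21) and Nrf1 (-0.28), the gene for the NRF1 factor, were lower and the others did not pass.

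The 9 members were not called in any other deprivation comparison. In unbound heterozygous RNA their log2 fold changes ran from -0.12 (Atp5a1) to 0.14 (Uqcrb), in bound knockout RNA from -0.21 (Uqcrb) to 0.07 (Sdha), and in bound astrocyte RNA from -0.13 (Atp5a1) to 0.02 (Atp5j). The difference of the deprivation effect between bound and unbound heterozygous RNA was above 0 for 75 of 78 members (median 0.21, all genes 0.02), yet edgeR called 0 (0% of 19275 genes). At an unadjusted p under 0.05 there were 26, led by Atp5a1 (0.45 ± 0.09, edgeR adjusted p = 0.0907), Uqcrfs1 (0.39) and Atp5b (0.38). The share of all genes under that level is not given here, so no conclusion about members is drawn from the 26. DESeq2 called 5 and limma-voom 1, and with the piece of cortex as a block, which pairs bound and unbound RNA, edgeR called 6. Between genotypes, the deprivation effect in bound RNA was lower in the knockout than in the heterozygous line for 76 of 78 members (median -0.23, all genes -0.03). Counts of members by sign, here and elsewhere, have no share of all genes beside them, and members may vary together. By edgeR 0 were called (0.51% of 19601 genes), DESeq2 called 2 as lower and limma-voom 0. An unadjusted edgeR p under 0.05 was found for 22, again without the share of all genes beside it. The smallest p belonged to Uqcrfs1 (-0.43, adjusted p = 0.078), followed by Ndufb1-ps (-0.47) and Atp5pb (-0.37). All 14 microglial markers were below 0 in the same comparison (median -0.54), as were 11 of 12 astrocyte markers (-0.44). With the heterozygous pieces grouped by side 0 members were called, at a median of -0.10.

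In the remaining deprivation comparisons edgeR called 0 members. In bound knockout RNA (0.00546% of 18324 genes called) the median was -0.07 with 64 of 78 members below 0, and Atp5l (-0.29) and Ndufb1-ps (-0.25) had an unadjusted p under 0.05. Member sums were 3858 to 4647 CPM in deprived and 4332 to 4856 CPM in control bound knockout libraries, which overlap. In unbound knockout RNA (0.038% of 18421 genes) the median was -0.01 and 0 members had an unadjusted p under 0.05. In unbound heterozygous RNA (3.75% of 18073 genes) the median was -0.02, and 1 member, Cox6a2 (-0.53), had an unadjusted p under 0.05. In bound astrocyte RNA (0% of 17685 genes) the median was -0.02, 0 members had an unadjusted p under 0.05, and Atp5d (0.15) and Atp5a1 (-0.13) had the smallest. Member sums there were 4049 to 5200 CPM in deprived and 4279 to 5322 CPM in control libraries, which overlap. In unbound astrocyte RNA (0% of 16846 genes) the median was -0.01, and 1 member, Ndufs1 (-0.10), had an unadjusted p under 0.05. DESeq2 and limma-voom called 0 members in each of these.

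The difference of the deprivation effect between fractions was not called for any member in the astrocyte line (edgeR 0 of 79, 0% of 18324 genes, median 0.00, 0 at an unadjusted p under 0.05) or the knockout line (0 of 78, 0% of 19681 genes, median -0.07, 1 at an unadjusted p under 0.05), and the same held with DESeq2 and with limma-voom. Levels were compared between the knockout and heterozygous lines in each fraction. In bound RNA edgeR called 0 of 78 (0.0561% of 19601 genes, median -0.04, 0 at an unadjusted p under 0.05), and in unbound RNA 0 of 78 (0.0674% of 19278 genes, median 0.04, 4 at an unadjusted p under 0.05, led by Ndufa13 at 0.19). DESeq2 and limma-voom called 0 in both fractions. The deprivation effect in unbound RNA likewise gave 0 calls between genotypes (1.79% of 19278 genes, median 0.01, 0 at an unadjusted p under 0.05), also by DESeq2 and limma-voom.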

How the data were processed

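Bound and unbound RNA of 56 libraries was analysed, in 12 groups of a line, fraction and condition taken from the titles. The authors deposited raw read counts per Ensembl gene in 1 table per line. Per the submitters' processing notes, reads were handled with featureCounts 2.0.0, HISAT2 2.2.0, Trim Galore 0.6.4, FastQC 0.11.9 and cutadapt 2.9, and the builds GRCm38 and mm10 are named. Settings, strand and treatment of reads with several hits are not given in the sources used here. Per the labels, cDNA came from 1 to 5 ng of RNA by the NuGEN Ovation V2 kit, and amplified reads without molecular identifiers are not independent molecules.

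The quasi-likelihood F test of edgeR 4.0.16 (R 4.3.3) was applied to counts (TMM scaling, filterByExpr, two-sided), with Benjamini-Hochberg adjustment over all genes tested and a threshold of 0.05. Fits across lines used the genes in both tables. CPM used TMM library sizes, shares used raw totals, and positions and mRNA lengths came from GENCODE vM21 of GRCm38. Near copies were sought among GENCODE vM21 transcripts with blastn 2.17.0. Members and lists were chosen with earlier results of these data known. Named were all called members of a deprivation or genotype comparison (or the 3 smallest p), the 5 highest and 5 lowest ratios of each bound over unbound comparison, fixed core subunits and isoforms, and up to 2 genes by smallest p of each related list. Further members were named after their values were seen.

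Knockout replicate numbers name the mouse, so its libraries pair by animal. Deviations of same-numbered libraries correlated above 0.1 in 5 of 5 mice for bound and 4 of 5 for unbound RNA. Bound and unbound RNA also pair by piece of cortex. Alternatives were DESeq2 1.42.0 (size factors, Wald test), limma 3.58.1 (voom with sample weights), no filter on low counts, counts without mitochondrially encoded genes, blocks by piece or number, sex as a term, other groupings of the heterozygous pieces and each library left out, with 467 results over 18 comparisons. The fits were tested on simulated data first.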

Additional observations from a re-analysis of the deposited data

Results flagged for a closer look

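Single libraries stood apart in 5 of 90 groups examined, by the gap of the highest or lowest library to its nearest neighbour. Chance flags about 1 in 20 groups. The complex II sum of mouse 12 was 318 CPM in bound control knockout RNA, above a group median of 296 CPM. The complex V sum of unbound deprived library 3 of the astrocyte line was 2267 CPM, below a median of 2529 CPM, and the complex IV sum of unbound control library 5 of that line was 612 CPM, below a median of 714 CPM. In bound control heterozygous RNA Sdha had 178 CPM in library 2, above a median of 153 CPM, and Uqcrfs1 had 42.4 CPM in library 1, above a median of 36.6 CPM. Both remained under the lowest deprived library.

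The ratio of bound over unbound RNA differed between the heterozygous and astrocyte lines for 70 members by the interaction test. The log2 differences were -1.88 for Atp5g2, -1.63 for Atp5d, -1.59 for Uqcrq, -1.41 for Uqcr11, -1.25 for Ndufc2, 0.19 for Uqcrc2, 0.20 for Sdha and 0.33 for Ndufs1. Line, transgene, tamoxifen and count table cannot be told apart in it.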

How the results depend on the processing

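Counts of members and of called members stayed within 1.5 times the main count in 437 alternative results and moved farther in 18. The bound over unbound counts ranged from 74 to 76 in the knockout, 72 to 74 in the heterozygous and 48 to 54 in the astrocyte line when 1 library was left out, and the heterozygous minus astrocyte count from 68 to 72. The 9 deprivation calls in bound heterozygous RNA became 14 without the low-count filter, 14 with DESeq2's Wald test, 15 with all 4 groups in the fit, 11 with the replicate number as a block, 0 with pieces grouped by side, 1 without pieces 17R and 21L, 0 in mice 14 and 15 alone and 2 with the mouse as a block there (both chosen after seeing the data). They ranged from 2 to 13 when 1 library was left out. The 0 calls for deprivation by fraction in that line became 1 without the filter, 5 with DESeq2, 1 with limma-voom and 6 with the piece as a block, and 0 to 2 with a library left out (2 without unbound control library 9). The 0 calls for deprivation by genotype in bound RNA became 2 with DESeq2 and 0 to 1 with a library left out. The block changed no call of a deprivation count in the knockout line, where the numbers name mice. Heterozygous numbers 1 and 2 (7 and 8 in unbound RNA) each join both pieces of 1 mouse, 14 or 15, while the other numbers join mice 17 and 21, so the numbers pair libraries by animal only in part, and 2 of 4 same-numbered pairs correlated above 0.1 in each fraction. In the astrocyte line, whose labels give the numbers no animal, 2 of 5 pairs (bound) and 4 of 5 (unbound) did.

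Log2 ratios near 0 changed sign, none of them past the threshold. Cox6a1 in the astrocyte line became -0.00669 with size factors, -0.0397 without the filter, -0.00756 with DESeq2, -0.0102 without mitochondrial genes, -0.00509 with the piece as a block and -0.00538 with sex. Ndufs8 became 0.00557 (limma-voom). Uqcrc1 in the knockout line became 0.00755 (no filter) and 0.0201 (limma-voom). Between heterozygous and astrocyte lines Atp5a1 became 0.00388, 0.0311 and 0.00365, and Ndufa9 0.0121, 0.0403 and 0.0118 (size factors, no filter, DESeq2), and Ndufa10 -0.0223 (limma-voom). With 1 library left out, the ranges were -0.0318 to 0.0448 for Cox6a1, -0.0444 to 0.0247 for Ndufs8 and -0.0402 to 0.0192 for Sdhd in the astrocyte line, -0.0316 to 0.0115 for Uqcrc1 in the knockout line and -0.0153 to 0.0649 for Ndufa10 between lines. The cause was not tested.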
